A study of Mus musculus with 12 samples.

Results

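The epidermal growth factor receptor gene Egfr and 7 genes for ligands of the ERBB receptors (Hbegf, Ereg, Areg, Tgfa, Btc, Nrg1 and Epgn) were followed in mouse fibroblast-like synoviocytes grown in culture, which are connective tissue cells from the lining of joints. The members were taken by gene symbol, and 8 of 8 were found among the 53341 genes of the deposited table. Of these, 7 passed the filter on low values (10 or more normalized counts in 3 or more of the 12 libraries), as did 18139 genes in all. Epgn did not pass it and is described by its levels.

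The EGF receptor is a receptor tyrosine kinase. Its ligands are made as membrane-bound precursors, are cut loose by ADAM proteases and bind the receptor through a compact fold held by 3 pairs of cysteines. Binding pairs the receptor with itself or with a relative such as ERBB2 and switches on the ERK and PI3K cascades. In joint fibroblasts this pathway is known for its part in growth, migration and the release of inflammatory mediators.

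Poly(A)-selected RNA made up 12 libraries, 3 in each of 4 groups called SoxC_KO_TNF, SoxC_KO, control_TNF and control. All cells came from mice described as SoxC. SoxC_KO cells were given Ade5CMV-Cre, an adenovirus in which the CMV promoter drives Cre recombinase, and control cells were given Ade5CMV-eGFP, so every group carried an adenovirus. The _TNF groups also had 10 ng/mL recombinant human TNF, an inflammatory cytokine, for 16 h, and those groups carry the label inflammation. The study asked which parts of the response to TNF depend on the SOXC transcription factors, Sox4, Sox11 and Sox12. The sources used here give neither the age of the mice nor their alleles, and do not say whether replicates are separate animals or cultures. The p-values therefore measure a spread that may be technical.

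Estimated depth was 8.14 to 13.7 M read pairs per library. Sox4 was 548 to 1433 normalized counts in the 6 knockout libraries, against 1625 to 4238 in the 6 control libraries, with no overlap, as the labels have it. Sox11 was 26.8 to 175 in knockout libraries, against 138 to 272 in control libraries. Sox12 was 86.5 to 259 in knockout libraries, against 162 to 352 in control libraries. Both of these ranges overlap, and in SoxC_KO replicate 3 Sox12 (259) was above control replicate 3 (162), while its Sox4 and Sox11 were the lowest of all 12 libraries. All 12 fibroblast markers were kept by the filter, with a summed level of 209788 to 570363 and Col1a1, a collagen chain, as the highest. This sum was 209788 to 395376 in the 4 libraries numbered 3, against 405438 to 570363 in numbers 1 and 2. Not every marker was lower there, and Thy1 was highest in SoxC_KO replicate 3 (22495). The 4 libraries numbered 3 stood apart from the others: the summed level of 9 macrophage markers was 3520 to 4120 in them, against 1429 to 2129 in numbers 1 and 2, with Lyz2 the highest and Ptprc, the pan-leukocyte marker, at 19.1 or less in every library. The neutrophil list, led by Camp, was 1401 to 2374 in number 3, against 474 to 1426 in the others, with S100a9 at 0 in 11 libraries. Liver transcripts, led by Alb, summed to 4267 in SoxC_KO_TNF replicate 1 and 631 in control_TNF replicate 2, against 69.8 or less elsewhere. The epithelial list, led by Krt19, lay between 294 and 1021 and the endothelial list, led by Tek, between 190 and 305. The muscle list, led by Acta1, lay between 377 and 1285, and SoxC_KO_TNF replicate 1 and SoxC_KO replicate 1 stood apart in Myh4, a muscle myosin, with 277 and 188 against 13.3 or less elsewhere. The part of these other transcripts in the members' levels was not tested, and in bulk RNA fewer cells of a type and less RNA per cell cannot be told apart.

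The ligands differ in sequence but share a fold through which they bind receptors of the ERBB family, which for Nrg1 are ERBB3 and ERBB4. The coding sequence of this fold is shown for Ereg and Areg, which passed the test for TNF in one of the fits below. It is also shown for Btc and Nrg1, whose values with TNF, by replicate number, were higher in knockout and lower in control cells. That pattern was seen in 3.98% of all genes tested. With all 12 libraries neither gene's change passed the test, with or without the block described below. Capitals mark the 6 cysteine codons, and each run reads 5′ to 3′ on the coding strand, joined from 2 exons of the GENCODE M21 annotation (GRCm38).
Ereg: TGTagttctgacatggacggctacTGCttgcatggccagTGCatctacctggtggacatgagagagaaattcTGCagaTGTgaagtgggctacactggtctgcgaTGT
Areg: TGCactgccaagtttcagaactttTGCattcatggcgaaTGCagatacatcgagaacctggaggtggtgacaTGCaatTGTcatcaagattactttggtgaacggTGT
Btc: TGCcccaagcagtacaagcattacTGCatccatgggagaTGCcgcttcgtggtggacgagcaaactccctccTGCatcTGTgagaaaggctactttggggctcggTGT
Nrg1: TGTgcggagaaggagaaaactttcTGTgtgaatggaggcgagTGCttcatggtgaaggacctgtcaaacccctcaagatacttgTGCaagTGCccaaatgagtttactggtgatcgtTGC

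In 6 of the 7 ligands the fold, first to last cysteine, spanned 36 codons, and in Nrg1 it spanned 40. Among the 6 of equal length, the share of identical residues was between 33.3% and 55.6% for each pair. Ereg and Areg, which lie near each other on chromosome 5, shared 12 of 36 residues (33.3%), the lowest value together with Areg and Epgn. Hbegf and Btc shared 20 of 36 (55.6%), the highest. The bases that code for the fold of Ereg, on 2 exons, lie between 91088496 and 91089111 of chromosome 5. Those of Areg, also on 2 exons, lie between 91143614 and 91144364.

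By level, epiregulin (Ereg) and heparin-binding EGF-like growth factor (Hbegf) dominated the ligand transcripts. Because genes differ in length, levels were compared between genes as normalized counts per kb of exon, with all annotated exons of a gene merged. The mean over 12 libraries was 788 per kb for Ereg, 463 for Hbegf, 221 for Egfr, 57.2 for Nrg1, 29.9 for Areg, 27.4 for Btc, 6.98 for Tgfa and 3.66 for Epgn. Ereg and Hbegf together made up 88.4% to 92.8% of the summed level per kb of the 7 ligands in every library. Their own order was not fixed. Ereg was above Hbegf in 9 of 12 libraries and below it in replicate 3 of SoxC_KO, control_TNF and control. Hbegf was above Egfr, and Egfr above Nrg1, in 12 of 12 libraries. Per kb, Hbegf was 382 or more and Egfr 348 or less. The listed span of Hbegf differs from the annotation that gave its length, and other lengths were not tested. Nrg1 was above Areg in 9 of 12, and Areg above Btc in 6 of 12, so the last pair has no order beyond its spread. Btc was above Tgfa, and Tgfa above Epgn, in 12 of 12.

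**Figure D1:**
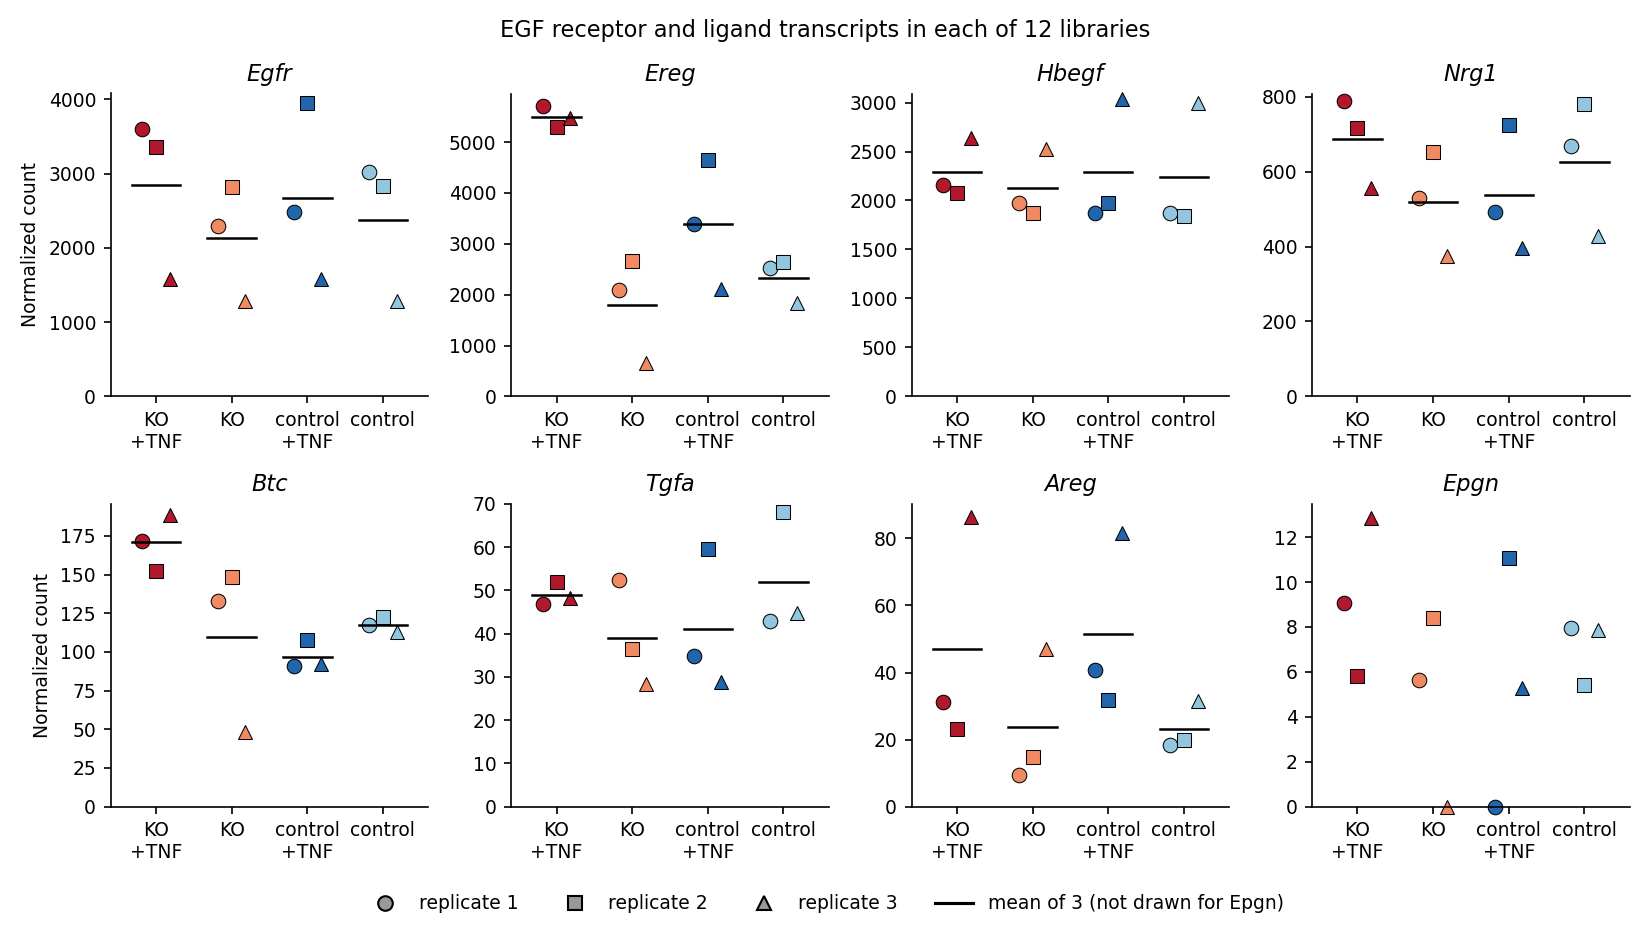
Normalized count of each of the 8 members in each library (linear axis from 0, 1 scale per gene), grouped as SoxC_KO_TNF, SoxC_KO, control_TNF and control, with 1 symbol per replicate number and a line at the group mean (none for Epgn). Ereg in SoxC_KO_TNF sits at 5305 to 5701, above all 9 other libraries, while the libraries numbered 3 are low for Egfr and high for Hbegf.

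Egfr, the receptor, was expressed in all groups and no difference between groups passed the test. Its normalized count was 3605, 3364 and 1585 in SoxC_KO_TNF replicates 1 to 3, and 2292, 2822 and 1284 in SoxC_KO. It was 2487, 3946 and 1575 in control_TNF, and 3020, 2838 and 1279 in control. All groups overlapped, and in each the replicate numbered 3 was the lowest. The highest values, 3605 and 3946, were those of the 2 libraries with liver transcripts. The gene lies on the plus strand of chromosome 11 (mm10, 16752203 to 16918158). Its log2 change with TNF was 0.40 (SE 0.47) in knockout cells, where limma's adjusted p was 0.847, and 0.17 (SE 0.47) in control cells, where it was 0.998. Without the 2 liver libraries the change in control cells was -0.17. The libraries numbered 3 averaged 1431, against 3047 for numbers 1 and 2, so that Egfr was 2.13-fold lower in them. The replicate number held 86.2% of the variance of Egfr over the 12 libraries on the log2 scale, and TNF 6.60%.

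Hbegf, a ligand that also binds heparan sulfate and serves as the diphtheria toxin receptor, moved least between groups. Its normalized count was 2156, 2080 and 2638 in SoxC_KO_TNF, and 1974, 1877 and 2523 in SoxC_KO. It was 1873, 1979 and 3033 in control_TNF, and 1869, 1846 and 2999 in control. The groups overlapped, and here the replicate numbered 3 was the highest in each. The group means were 2291 ± 303, 2124 ± 349, 2295 ± 641 and 2238 ± 659 in the same order of groups (SD, n = 3 each). With TNF the log2 change was 0.11 (SE 0.26) in knockout cells and 0.04 (SE 0.26) in control cells, with limma adjusted p = 0.907 and 0.998. By replicate number the values with TNF were higher by 0.13, 0.15 and 0.064 in knockout cells and by 0.0025, 0.10 and 0.016 in control cells. The libraries numbered 3 averaged 1.43 times the level of the others, and the replicate number held 87.7% of the variance. Hbegf is listed on chromosome 18 with a span that differs from the annotation used here.

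Ereg, a ligand known to be induced in inflamed and healing tissue, had the largest change with TNF of the members in knockout cells. Its normalized count was 5701, 5305 and 5468 in SoxC_KO_TNF, against 2082, 2666 and 664 in SoxC_KO. It was 3396, 4642 and 2103 in control_TNF, against 2530, 2635 and 1840 in control. The 3 SoxC_KO_TNF libraries lay close together and above all others, whereas control_TNF and control overlapped. The group means were 5491 ± 199 in SoxC_KO_TNF, 1804 ± 1030 in SoxC_KO, 3380 ± 1270 in control_TNF and 2335 ± 432 in control (SD, n = 3 each). Ereg lies on the plus strand of chromosome 5 (mm10, 91074622 to 91093646) and its exons overlap Gm19610, an antisense gene with a mean of 10.98 normalized counts. The sources used here do not say whether counting used strand, so these reads may not be separable.

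TNF in knockout cells went with a 3.55-fold higher Ereg (log2 change 1.83, SE 0.45, 95% interval 0.84 to 2.82). In limma's fit without the replicate number the adjusted p was 0.192, and 0 of 7 members passed, where 0.292% of all genes tested did. The replicate number was also fitted as a block, as 1 factor over all 4 groups. Correlations of same-numbered libraries were over 0.1 for both TNF comparisons, but only 0.103 for numbers 1 in control cells. For knockout with TNF, numbers 1 were at 0.05 and fell short. Deviations from a group mean cancel, so with numbers 3 apart these values do not show that numbers 1 or 2 are matched. The sources used here do not say whether same-numbered libraries share an animal or culture. With this block Ereg rose (SE 0.29, limma adjusted p = 0.00536). It was the 1 of 7 members to do so, where 2.78% of all genes passed. It passed in 12 of 12 blocked fits that left out 1 library each, with adjusted p up to 0.0289. The size rests in part on SoxC_KO replicate 3, the library at 664. Without that library the log2 change was 1.38 in the blocked fit (limma adjusted p = 0.00488) and 1.22 without the block (adjusted p = 0.235). Without all 4 libraries numbered 3 it was 1.22, with limma adjusted p = 0.0133 and no block. Without the 2 liver libraries it was 1.93 in the blocked fit (limma adjusted p = 0.0444).

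In control cells the log2 change of Ereg with TNF was 0.48 (SE 0.45, limma adjusted p = 0.998). None of the 7 members passed there, where 0.32% of all genes did. The blocked fit called 0 of 7 as well, against 1.71% of all genes, with an adjusted p of 0.516 for Ereg from limma. Taken by replicate number, Ereg, Areg and Hbegf had higher values with TNF in 6 of 6 pairs, as did 4.91% of all genes tested. For Ereg the differences were 1.45, 0.99 and 3.04 on the log2 scale in knockout cells and 0.42, 0.82 and 0.19 in control cells. Averaged over both genotypes the change was 1.15 (SE 0.32), or 2.22-fold. Without the block limma's adjusted p was 0.157 and 0 of 7 members passed, where 1.17% of all genes did. With the block it was 0.00524, and Ereg and Areg passed, 2 of 7 members, where 5.19% of all genes did. Ereg passed in 12 of 12 blocked fits without 1 library.

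**Figure D2:**
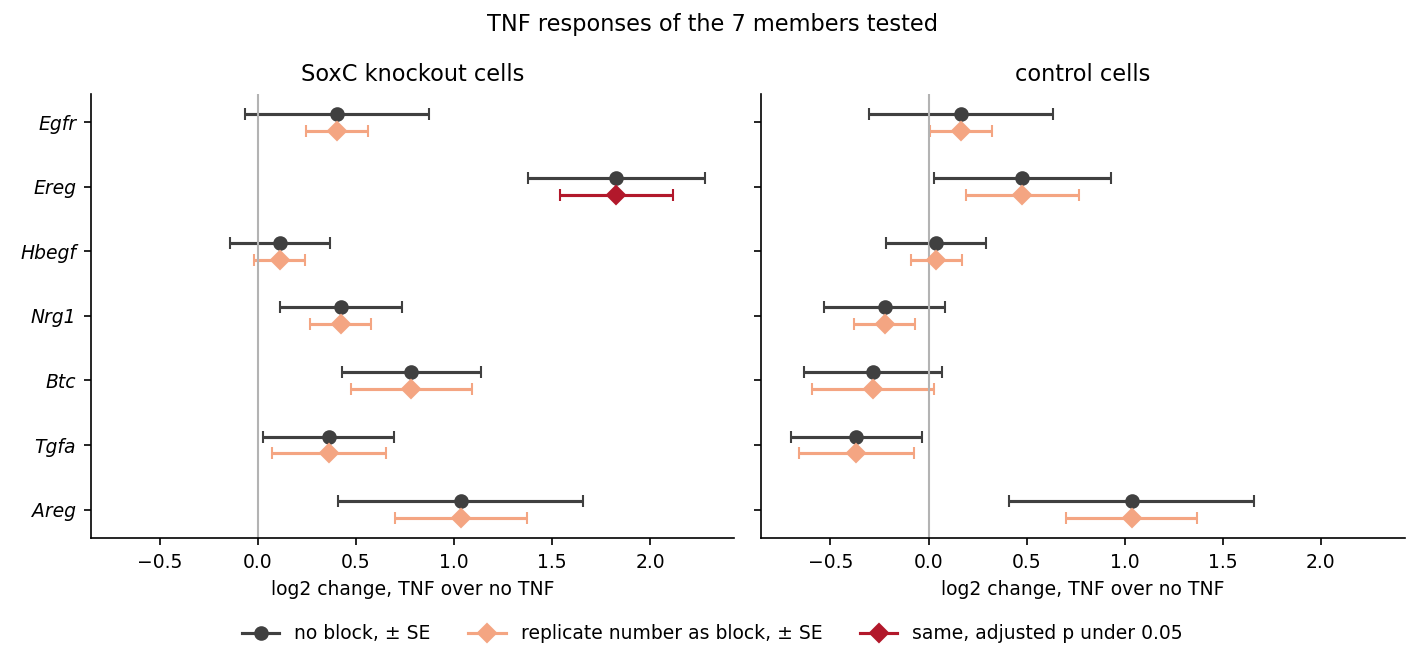
Log2 change with TNF of the 7 members tested, in knockout cells (left) and control cells (right), as limma's estimate with bars of 1 SE, without the replicate number (dark circles) and with it as a block (diamonds, red where the adjusted p is under 0.05). Ereg in knockout cells, at 1.83, is the farthest from 0, and its SE is 0.45 without and 0.29 with the block.

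Whether the response of Ereg to TNF differed between genotypes was tested as an interaction. The log2 response was 1.35 larger in knockout than in control cells (SE 0.64), with an unadjusted p of 0.0570 and an adjusted p of 0.884 from limma. With the block limma's adjusted p was 0.284. No member and no gene passed this test in either fit (0% of all genes), while 273 genes without the block and 3123 with it had an unadjusted p under 0.05. Without SoxC_KO replicate 3 the difference was 0.74. The larger response in knockout cells is thus not shown to differ from that in control cells.

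Areg, amphiregulin, is a low-affinity ligand of the receptor and lies downstream of Ereg on the same strand of chromosome 5 (mm10, 91139599 to 91148432). Its normalized count was 31.1, 23.2 and 86.5 in SoxC_KO_TNF, against 9.43, 14.8 and 46.9 in SoxC_KO. It was 40.8, 31.7 and 81.7 in control_TNF, against 18.4, 19.9 and 31.4 in control. All control_TNF values lay above all control values, narrowly at the nearest point, 31.7 against 31.4, and the ranges of the knockout groups overlapped. The log2 change with TNF was 1.04 (SE 0.62) in knockout cells and 1.04 (SE 0.62) in control cells, with limma adjusted p = 0.772 and 0.998. By replicate number it was higher with TNF by 1.62, 0.62 and 0.87 in knockout cells and by 1.11, 0.64 and 1.35 in control cells. Averaged over the genotypes the change was 1.04 (SE 0.44), or 2.05-fold, with limma adjusted p = 0.553 without the block. In the blocked fit Areg rose (SE 0.24, limma adjusted p = 0.0247). That call held in 4 of 12 blocked fits that left out 1 library each, with adjusted p between 0.0165 and 0.0794. At these levels a value rests on few reads. The libraries numbered 3 averaged 2.60 times the level of the others, and the replicate number held 53.0% of the variance, against 35.1% for TNF.

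**Figure D3:**
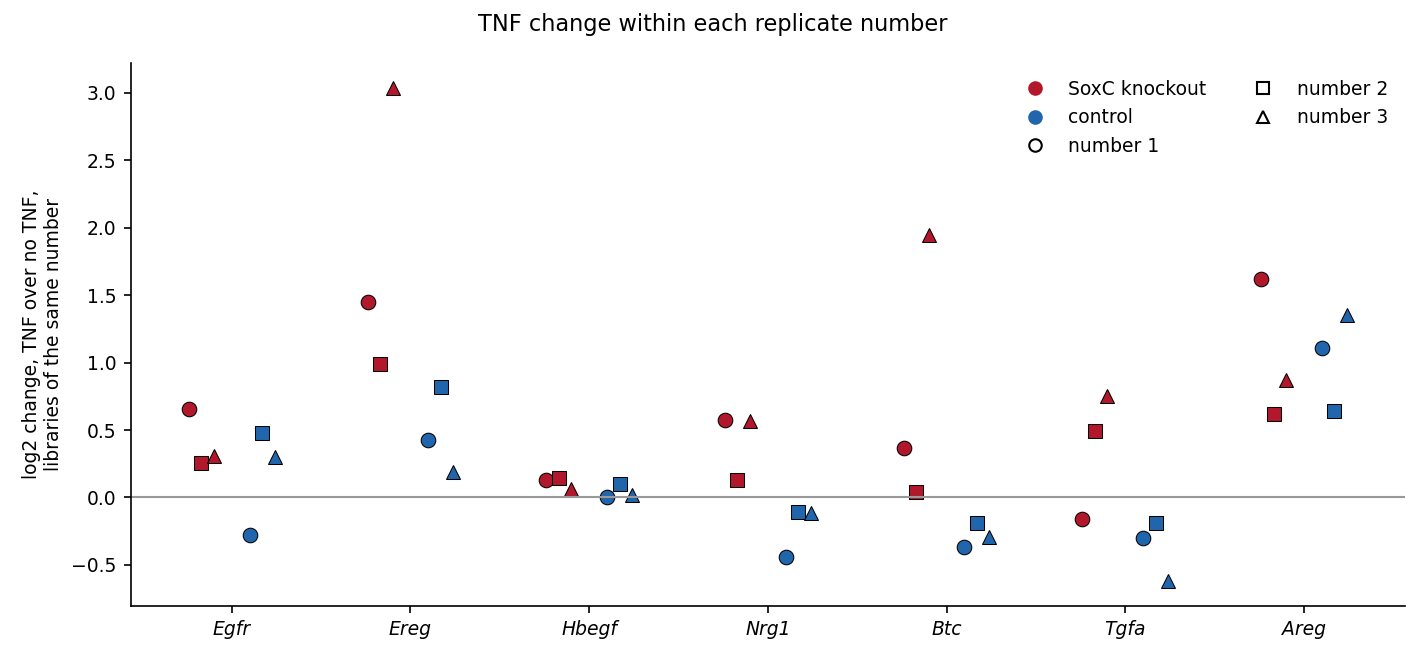
Log2 change with TNF of each of the 7 members tested by replicate number (symbols), in knockout cells and in control cells. Ereg, Areg and Hbegf are above 0 in 6 of 6 pairs, as are 4.91% of all genes tested, and Btc and Nrg1 are above 0 for each number in knockout cells and below 0 for each in control cells.

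The stretch of chromosome 5 from the start of Epgn to the end of Btc (91027464 to 91402994, 375.5 kb) holds 7 genes in the table. The 4 that code for proteins are Epgn, Ereg, Areg and Btc, all of them ligands. RefSeq promoters (GRCm38.p6) were at hand for 5 members, Epgn, Areg, Btc, Tgfa and Egfr. That of Areg is shown because Areg was among the members that rose with TNF in the blocked fit and because it held a full cyclic AMP response element. The 250 bases before its start, chr5:91139349-91139598 on the plus strand, are given with the element (TGACGTCA, at position -61 from the start) and its short form (CGTCA, at -115) in capitals.
Areg promoter: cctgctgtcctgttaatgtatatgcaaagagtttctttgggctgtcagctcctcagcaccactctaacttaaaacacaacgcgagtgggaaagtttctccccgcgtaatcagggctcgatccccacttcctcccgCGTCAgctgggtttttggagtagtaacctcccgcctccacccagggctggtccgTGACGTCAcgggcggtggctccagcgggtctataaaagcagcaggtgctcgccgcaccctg

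The full element TGACGTCA was found, on either strand, in 588 of 32851 promoters of the same length (1.8%), and the short form TGACG, which the full one contains, in 20.8%. Short forms also stood in the promoters of Epgn (at -101) and Btc (at -113). The AP-1 motif TGANTCA (7.8% of all promoters), the NF-kB motif GGGNNTTCC, with 2 or 3 bases N in its middle (9.7%) and the SOX core AACAAT or AACAAAG (15.7%) had no match in the windows of these 5 members. A match or its absence describes the letters of these windows and no more.

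Btc, betacellulin, which binds both EGFR and ERBB4, was highest in SoxC_KO_TNF. Its normalized count was 171, 152 and 189 in SoxC_KO_TNF, against 133, 148 and 48.3 in SoxC_KO. It was 90.7, 108 and 92.3 in control_TNF, against 117, 123 and 113 in control. The values with TNF were all above those without it in knockout cells and all below them in control cells. Its log2 change with TNF was 0.78 (SE 0.35, limma adjusted p = 0.675) in knockout cells and -0.28 (SE 0.35, adjusted p = 0.998) in control cells. Without SoxC_KO replicate 3, the library at 48.3, the change in knockout cells was 0.28. Neither change passed, nor did the difference between them, 1.07 (SE 0.50, limma adjusted p = 0.884 without and 0.284 with the block). Btc lies on chromosome 5 (mm10, 91357261 to 91402994, minus strand).

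Nrg1, neuregulin 1, signals through ERBB3 and ERBB4 rather than EGFR. Its normalized count was 788, 715 and 555 in SoxC_KO_TNF, against 529, 652 and 375 in SoxC_KO. It was 491, 725 and 395 in control_TNF, against 669, 781 and 429 in control. The groups overlapped. The log2 change with TNF was 0.42 (SE 0.31) in knockout cells and -0.22 (SE 0.31) in control cells, with limma adjusted p = 0.808 and 0.998. In the blocked fits without 1 library, Nrg1 passed in knockout cells in 1 of 12, that without SoxC_KO_TNF replicate 2 (log2 change 0.59, limma adjusted p = 0.0371). The difference of 0.65 (SE 0.44) had a limma adjusted p of 0.884 without and 0.284 with the block. Differences of opposite sign in the genotypes, each for all 3 replicate numbers, were seen in Btc and Nrg1 among the members and in 3.98% of all genes tested. Nrg1 lies on chromosome 8 (mm10, 31814551 to 32884029, minus strand), and its exons overlap Gm26578, an antisense gene with a mean of 75.7, so these reads may not be separable.

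Tgfa, transforming growth factor alpha, and Epgn, epigen, were the lowest members per kb. Tgfa was 46.8, 51.9 and 48.3 in SoxC_KO_TNF and 52.5, 36.5 and 28.3 in SoxC_KO. It was 34.8, 59.7 and 28.8 in control_TNF and 43.0, 68.1 and 44.8 in control, with all groups overlapping. Its log2 change with TNF was 0.36 (SE 0.33) in knockout cells and -0.37 (SE 0.33) in control cells, with limma adjusted p = 0.826 and 0.998. Tgfa lies on the plus strand of chromosome 6 (mm10, 86195223 to 86275719). Epgn was 9.06, 5.81 and 12.8 in SoxC_KO_TNF and 5.66, 8.38 and 0 in SoxC_KO. It was 0, 11.1 and 5.27 in control_TNF and 7.97, 5.40 and 7.85 in control. Values of 1 normalized count or less are listed as 0, and no fold is given for this gene. Epgn lies on the plus strand of chromosome 5 (mm10, 91027464 to 91035215).

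**Figure D4:**
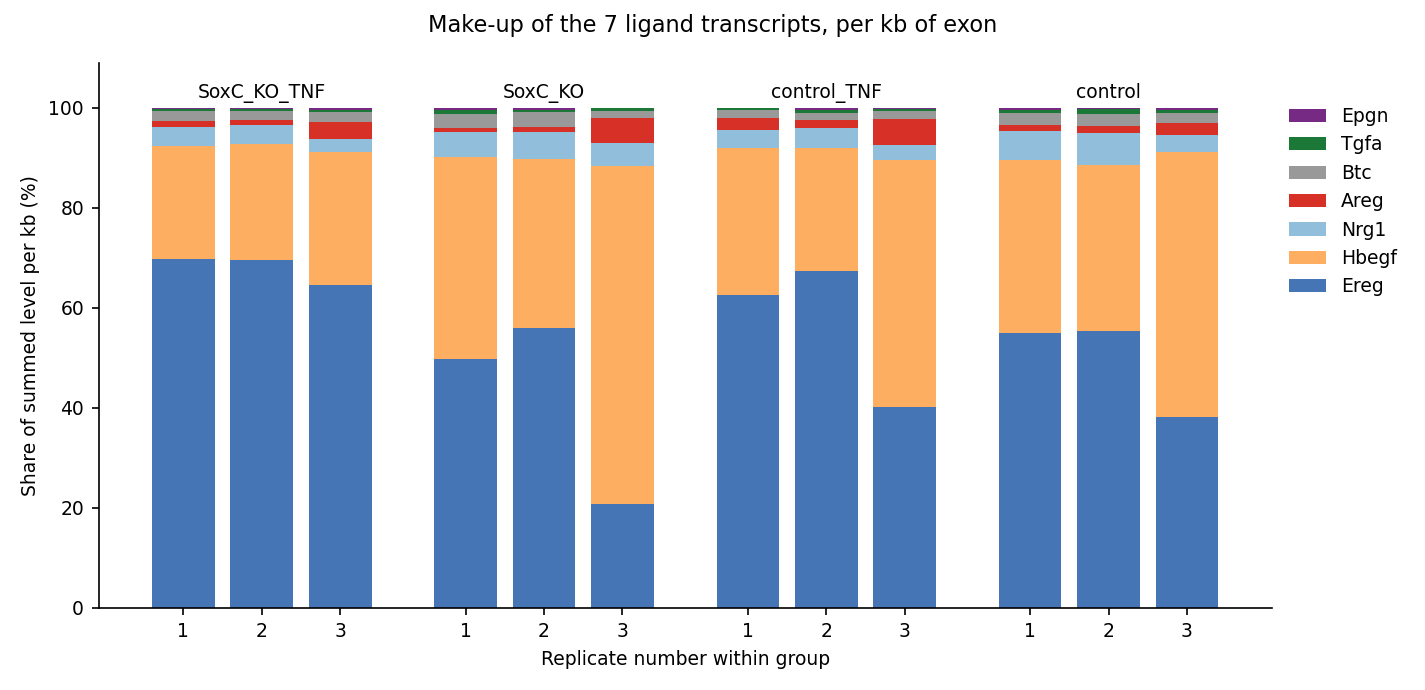
Share of each ligand in the summed level per kb of the 7 ligands, in percent, for each library. Ereg takes 64.6% to 69.8% in SoxC_KO_TNF, while in replicate 3 of the other groups Hbegf takes the larger share.

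The balance of the ligands varied with both Ereg and Hbegf. In the libraries numbered 3, Hbegf averaged 1.43 times and Ereg 0.696 times the level of the others. Per kb, the ratio of Ereg to Hbegf was 3.10, 2.99 and 2.43 in SoxC_KO_TNF, against 1.24, 1.66 and 0.308 in SoxC_KO. It was 2.12, 2.75 and 0.812 in control_TNF, against 1.58, 1.67 and 0.718 in control. With TNF the ratio was higher for each replicate number in both genotypes. Within knockout cells the ranges with and without TNF did not overlap, and within control cells they did. As a share of the 7 ligands, Ereg was 68.0% ± 2.94 in SoxC_KO_TNF, 42.2% ± 18.8 in SoxC_KO, 56.7% ± 14.5 in control_TNF and 49.5% ± 9.84 in control (SD, n = 3 each).

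The knockout itself changed no member past the threshold. Without TNF the log2 change between SoxC_KO and control was between -0.58 (Ereg) and -0.05 (Hbegf), and all 7 had a limma adjusted p of 0.999. With TNF, SoxC_KO_TNF against control_TNF, Btc was 0.81 higher (SE 0.35, unadjusted p = 0.0416) and Ereg 0.77 higher (SE 0.45), both with a limma adjusted p of 0.997. The other members lay between -0.24 (Areg) and 0.38 (Nrg1). In both comparisons 0% of all genes passed, with or without the block. At an unadjusted p under 0.05, limma had 176 genes without TNF and 233 with TNF, and 826 and 1160 in the blocked fits. The values without TNF lean on SoxC_KO replicate 3: without it Ereg was at 0.031 and Btc at 0.25. By replicate number, Ereg in knockout against control cells was at 0.75, 0.19 and 1.38 with TNF, and at -0.28, 0.02 and -1.47 without it. For Btc the same values were 0.91, 0.50 and 1.02 with TNF, and 0.18, 0.27 and -1.21 without it.

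**Figure D5:**
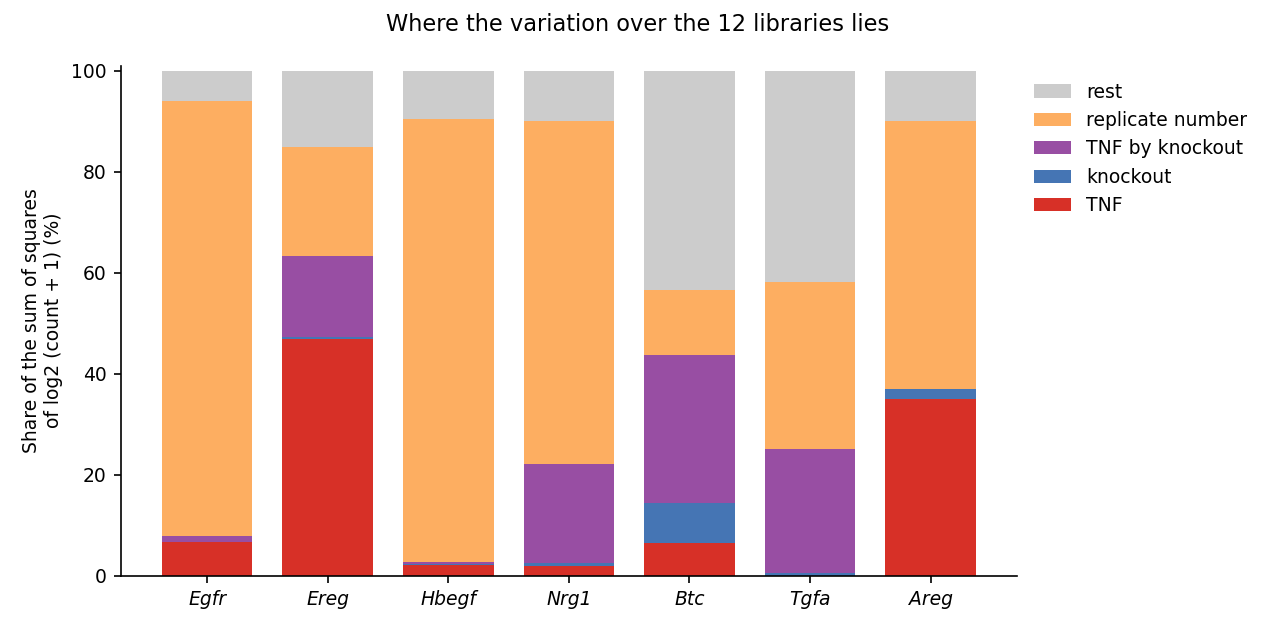
Share of the sum of squares of log2(normalized count + 1) over the 12 libraries (in percent) that goes with TNF, the knockout, their interaction, the replicate number and the rest, for each of the 7 members tested. The replicate number holds 86.2% for Egfr and 87.7% for Hbegf, and TNF holds 46.9% for Ereg.

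The members thus differed in what they varied with. The replicate number held 67.9% of the variance of Nrg1, 33.2% of Tgfa, 21.4% of Ereg and 12.9% of Btc. For Ereg, TNF held 46.9% and the interaction 16.1%, and for Btc the interaction held 29.2%. No interaction passed the test with or without the block. The rest, which went with none of these factors, was 43.4% for Btc and 41.8% for Tgfa, against 15.2% or less for the other members tested. The knockout held 7.998% for Btc and 1.96% or less for Egfr, Hbegf, Ereg, Areg, Tgfa and Nrg1.

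Of 76 other genes of the pathway, 73 passed the filter. In the fit without the block 1 of them, Lrig1, passed for the average effect of TNF, near the 1.17% of all genes that did, and 0 passed in either direction in every other comparison. Lrig1, which promotes the breakdown of the receptor, had 3753, 3795 and 3917 normalized counts in SoxC_KO_TNF, against 2147, 2124 and 2817 in SoxC_KO. It had 3242, 4149 and 4005 in control_TNF, against 2220, 2276 and 2025 in control. Its libraries with and without TNF did not overlap, and it rose by 0.75 on the log2 scale (SE 0.12, limma adjusted p = 0.0114). It passed in 12 of 12 fits that left out 1 library each. The median log2 change of the 73 genes was 0.03, against 0.00 for all genes tested.

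In the blocked fit 5 of the 73 rose and 2 fell with TNF on average, where 5.19% of all genes passed. Among the feedback inhibitors Lrig1, Dusp5 (0.53) and Dusp6 (0.45) rose and Dusp4 (-0.49) fell, the last 3 being phosphatases that act on MAP kinases. Among ERK-responsive genes Ptgs2 (0.87), the inducible cyclooxygenase, and Ier3 (0.58), an immediate early gene, rose. Timp3 (-0.95), an inhibitor of ADAM17, a protease that frees several of these ligands, fell. Their limma adjusted p-values were 0.000732 for Lrig1, 0.0280 for Dusp5, 0.0113 for Dusp6, 0.0295 for Dusp4, 0.00208 for Ptgs2, 0.01005 for Ier3 and 0.000188 for Timp3. Lrig1, Ptgs2, Ier3 and Timp3 passed in 12 of 12 blocked fits without 1 library, Dusp6 in 9, and Dusp4 and Dusp5 in 3 each.

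Within each single genotype 4 of the 73 passed in the blocked fit, where 2.78% of all genes did in knockout cells and 1.71% in control cells. Those of the knockout cells were Ptgs2 (1.26), Lrig1 (0.71), Dusp6 (0.53) and Timp3 (-0.68). Those of the control cells were Dusp5 (0.87), Lrig1 (0.80), Ier3 (0.76) and Timp3 (-1.21). Most of these calls depend on single libraries. Of 12 blocked fits that left out 1 library each, in knockout cells Ptgs2 passed in 12, Lrig1 in 7, Timp3 in 4 and Dusp6 in 2. In control cells Timp3 passed in 12, Lrig1 in 7, Dusp5 in 6 and Ier3 in 5. Timp3 was 9478, 8736 and 5641 in SoxC_KO_TNF, against 14076, 16869 and 8123 in SoxC_KO. It was 5443, 8324 and 4488 in control_TNF, against 16134, 16349 and 9639 in control, where the groups did not overlap. None of the 73 passed for the knockout or the interaction, with or without the block. Of the classes with no gene called, the highest were Erbb2, the partner of EGFR (mean 627), Nrg4 (55.8) and the kinase Akt1 (8281). Erbb4, Nrg3 and Cblc did not pass the filter, and Egf itself had a mean of 12.7.

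The genes whose log2 levels followed each member most closely over the 12 libraries were found among 14007 tested genes, as a description of shared libraries. For Ereg they were Sema3c (Pearson's r = 0.983), Il1rl1 (0.982) and Pid1 (0.982). For Areg they were Hs3st1 (0.960), Shbg (0.945) and Tnfrsf9 (0.926), and for Btc Rnf13 (0.945), Atxn3 (0.940) and Eif4a2 (0.938). For Egfr they were Srgap3 (0.984), Msn (0.983) and Armcx4 (0.982). For Hbegf they were Uqcrc2 (0.973), Smu1 (0.971) and Wdr92 (0.968), and for Nrg1 Slc35b4 (0.981), Itga6 (0.979) and Arl15 (0.973). For Tgfa they were Nyx (0.897), Kif3a (0.874) and Trim36 (0.874). The points share groups, replicate numbers and library depth. With the mean of each replicate number removed, r was 0.743 to 0.795 for the genes named for Hbegf. It was 0.981 to 0.983 for those of Ereg and between 0.834 and 0.9635 for those of the other members.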

How the data were processed

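For each gene and library the deposited table has a value on a log2 scale, normalized by the authors per the file headers, with DESeq and mm10 named in the submitters' processing notes. The sources used here do not give the aligner, the annotation or the use of strand. In the values, 1 normalized count or less is listed as 0. The planned tests assumed linear values, so the deposited log2 values were raised to the power of 2 and analysed as log2(normalized count + 1), a scale that understates changes of low genes. Libraries had normalized totals of 19.6 to 23.1 M. The smallest common step put depth at 8.14 to 13.7 M read pairs, and 53.5% to 60.2% of low values fell on multiples of 0.5 step (tolerance 0.01), too few to recover reads for a count test.

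limma 3.58.1 in R 4.3.3 was fitted to 18139 genes with 1 mean per group, an intensity trend and Benjamini-Hochberg adjustment at 0.05, and tested on simulated data. The contrasts were TNF in each genotype, knockout with and without TNF, the interaction and the averages. The replicate number from the sample titles was the alternative block. Correlations of same-numbered deviations were 0.34, 0.15 and 0.50 for TNF in knockout cells, 0.10, 0.55 and 0.72 for TNF in control cells and 0.46, 0.52 and 0.71 for knockout without TNF, all over 0.1. They were 0.05, 0.19 and 0.53 for knockout with TNF, where numbers 1 fell short. Deviations from a group mean cancel within the group, so where numbers 3 lie apart, numbers 1 and 2 are pushed the same way. Correlations between different numbers were not computed, so values over 0.1 do not show that numbers 1 or 2 are matched.

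Exon lengths and coding sequences came from GENCODE M21, where 53236 gene identifiers (99.8%) were found, and promoters from RefSeq. Members and gene lists were chosen with earlier results of these data known. All members were named, as were pathway genes called in any contrast (up to 4 per class) or, in classes with none, the highest, the top marker of each cell type (1 list is not reported here) and the 3 genes most correlated with each member. Alternatives were other pseudocounts (0.25, 5), the deposited scale, filters, scalings, library weights, the block and left-out libraries. Leaving out the libraries numbered 3, those with liver or muscle transcripts, and single libraries in the blocked fit was chosen after seeing the data.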

Additional observations from a re-analysis of the deposited data

Results flagged for a closer look

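The values of Btc and Nrg1 with TNF were higher in knockout cells and lower in control cells for every replicate number, a pattern shown by 3.98% of all genes tested. With all 12 libraries, neither gene's change passed the test in either genotype in the fits with or without the block. The fit with library weights, whose calls are not used, is described below. The log2 change of Btc with TNF was 1.07 larger in knockout than in control cells (SE 0.50), at 0.37, 0.04 and 1.95 in knockout cells and -0.37, -0.19 and -0.29 in control cells. That of Nrg1 was 0.65 larger (SE 0.44), at 0.57, 0.13 and 0.56 in knockout cells and -0.44, -0.11 and -0.12 in control cells. As a test of the difference, limma's interaction gave both an adjusted p of 0.884, and 0.284 with the replicate number as a block, so neither passed. Without SoxC_KO replicate 3 the difference for Btc was 0.56.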

How the results depend on the processing

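Across alternatives 607 values for single members kept their direction and side of the threshold, 53 newly passed it and 12 reversed. The count of members called was 0 of 7 in every comparison. With the replicate block it was 1 for TNF in knockout cells (Ereg) and 2 for the average TNF effect (Ereg, Areg). Without the 4 libraries numbered 3 it was 1 and 1 (Ereg), with or without the block. In the blocked fits without the liver libraries, or without the muscle libraries, it was also 1 and 1. Leaving out 1 library, with or without the block, gave 0 to 2 for both. The 2 for TNF in knockout cells were Ereg and Nrg1, in the blocked fit without SoxC_KO_TNF replicate 2. Library weights called 5 members for TNF in control cells, 2 for TNF in knockout cells, 6 for knockout with TNF, 5 for the interaction, 2 for the average TNF effect and 1 for the average knockout effect. With these weights 63.9%, 6.99%, 53.5%, 31.2%, 37.1% and 2.76% of all genes passed in the same order, and the weight estimation stopped before it converged, so these calls are not used. Their cause was not tested. Without the filter on low values 0.126%, 0.102% and 0.436% of genes passed for TNF in knockout cells, in control cells and on average. With all 12 libraries the block changed no call of a member other than those of Ereg and Areg.

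None of the reversed changes passed the threshold. Egfr with TNF in control cells was at -0.19 with weights, -0.17 without the liver libraries and between -0.23 and 0.50 without 1 library. Hbegf with TNF in control cells was at -0.0063 with weights and between -0.18 and 0.27 without 1 library. In knockout against control cells without TNF, Ereg lay between -0.97 and 0.031 without 1 library. Btc lay between -0.55 and 0.25, at 0.14 with weights and at 0.22 without the libraries numbered 3. The cause was not tested beyond the libraries named. Areg, Tgfa and Epgn rest on few reads at this depth.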
